A study of Drosophila melanogaster with 2 samples.

Results

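The region described here is the anterior stretch of the Antennapedia complex of Drosophila melanogaster, from lab to ftz, as seen in one list of binding sites of Polycomb-like (Pcl). Members are the peaks of arm 3R whose centre lies from position 2480000 up to, but not including, 2692000 on build BDGP5, a window of 212 kb. This rule uses position alone and found 24 peaks, which is 3.03% of the 791 peaks on 3R and 0.977% of the 2457 peaks of the whole list. The 7 genes that name the window are lab, pb, zen, bcd, Dfd, Scr and ftz.

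The study mapped Pcl by chromatin immunoprecipitation and sequencing (ChIP-seq) in whole embryos collected 0 to 8 h after egg laying, without treatment, using the antibody KW4-Pcl-D2. The peak list belongs to 1 ChIP sample whose title combines 3 replicates, so no value below has a replicate error and no test was made. A second sample, input chromatin of the same stage, was not analysed here. The growth protocol names iso1 (y; bw cn sp) flies or transgenic flies without saying which were used for these samples. Whole embryos of this age range mix many cell types and stages, so a peak may come from a part of the cells only.

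Pcl is a PRC2 partner. PRC2 is a Polycomb complex that methylates a lysine on the tail of histone H3 and thereby helps to keep genes silent. Homeotic (Hox) genes, which give the segments of the body their identity along the head-to-tail axis, are the classic targets of this repression in flies. The Antennapedia complex holds the Hox genes of the head and anterior thorax. Of these, lab acts in the most anterior head segments and midgut, pb in the mouthparts, Dfd in the mandibular and maxillary segments, and Scr in the labial and anterior thoracic segments. Between and beside them lie genes that descend from Hox genes but no longer have a homeotic role. One of them, zen, is needed for dorsal tissues such as the amnioserosa, bcd encodes the anterior determinant laid down by the mother, and ftz is a pair-rule gene of segmentation.

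All 7 genes were matched by symbol in the RefSeq gene table, which is of Release 6. In that table they follow each other along 3R in the order lab, pb, zen, bcd, Dfd, Scr and ftz, and the next protein-coding gene listed is Antp, a Hox gene of the thorax. From lab to ftz the table lists 18 protein-coding genes. Between lab and pb lie 8 of them, Edg84A and 7 genes of the Ccp84A family, which encode cuticle proteins. Between pb and zen lie zen2, a relative of zen, and CG34297, and between bcd and Dfd lies Ama, which encodes an immunoglobulin-domain protein. No protein-coding gene is listed between zen and bcd, between Dfd and Scr, or between Scr and ftz. Positions of that release were not carried over to BDGP5, so no peak is assigned to a gene, and the peaks are described by position in map order.

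Pcl peaks in the window lay in 8 groups, taken as runs of peaks with gaps under 10 kb, and were parted by empty stretches that together made up most of its length. Peaks covered 12.7% of the window, or 26890 bp. Empty stretches of at least 10 kb numbered 8 and took up 62.0% of it, or 131 kb. The authors' peak score, the peak caller's own value on a scale that the file does not name, had a median of 98.5 in the window and 73.6 in the whole list. The highest score, 861, was 2.12 times the second highest, 407. At the low end, 16 of the 24 peaks scored below 110, and the lowest member, at 50.5, lay close to the lowest score of the list, 50.01. Scores below 110 were no more common here than elsewhere. The upper quartile of the score was 151 in the window, 105 in the whole list and 110 on 3R.

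**Figure D1:**
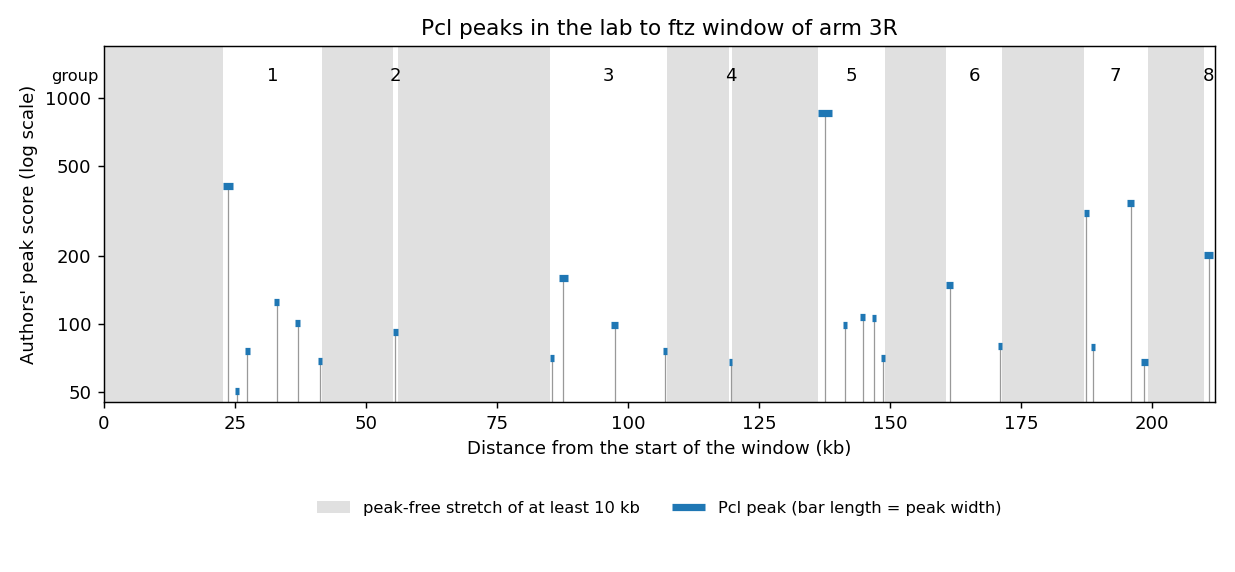
Each of the 24 Pcl peaks of the window is drawn as a horizontal bar at its score (log axis, no unit) against its distance from the window start in kb, with grey bands for the 8 peak-free stretches of at least 10 kb and group numbers on top. Peaks stand in 8 groups, the tallest of which opens group 5 at 138 kb with a score of 861.

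The first group held 6 peaks over 18.9 kb, from 2502732 to 2521667, and opened with its strongest peak. That peak, at 2502732 to 2504716, was 1985 bp wide and scored 407, which ranked 69 in the list and 33 on 3R. A small peak at 2505014 to 2505780 followed after 297 bp and had the lowest score of the window, 50.5, which ranked 2412 in the list. The other members were weak to moderate. They lay at 2506994 to 2507873 (880 bp, score 75.9), at 2512499 to 2513459 (961 bp, score 125), at 2516552 to 2517412 (861 bp, score 101) and at 2520969 to 2521667 (699 bp, score 68.2). Their ranks in the list were 1150, 453, 660 and 1405 in the same order. Scores after the opening peak thus neither rose nor fell steadily with distance from it.

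The part that follows, up to 2616293, held 6 peaks, none with a score of 200 or more. A lone peak of 954 bp at 2535190 to 2536143 scored 91.7 and ranked 809. The third group held 4 peaks over 22.3 kb, from 2565133 to 2587450. Its strongest member, at 2566891 to 2568524, was 1634 bp wide and scored 159.9, which ranked 264 in the list. A broad peak of 1387 bp at 2576785 to 2578171 scored only 98.5 (rank 689), whereas its width ranked 243. The remaining members were narrow, at 2565133 to 2565885 (753 bp, score 70.6, rank 1326) and at 2586735 to 2587450 (716 bp, score 76.1, rank 1143). Another lone peak at 2599302 to 2599919 was the narrowest of the window, with 618 bp, a score of 67.6 and a rank of 1441.

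The fifth group was the most fully covered of those with more than 2 peaks and held the peak that dominates the window. It had 5 peaks over 12.9 kb, from 2616294 to 2629155, and peaks covered 48.4% of that span. Its opening peak, at 2616294 to 2619044, was 2751 bp wide and scored 861. It was the highest and the widest of the 24, ranked 21 by score and 29 by width in the whole list, and ranked 8 by score on 3R. The 4 peaks after it were much weaker. They lay at 2621069 to 2621896 (828 bp, score 98.6), at 2624378 to 2625320 (943 bp, score 107), at 2626542 to 2627396 (855 bp, score 106) and at 2628314 to 2629155 (842 bp, score 70.2). Their ranks were 687, 601, 605 and 1340. In both the first and the fifth group the highest and widest peak was thus the one at the lower coordinate, followed by smaller peaks spaced by 297 bp to 4.63 kb in the first and by 917 bp to 2.48 kb in the fifth.

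The sixth group was a loose pair 8.56 kb apart. Its peaks lay at 2640756 to 2642039 (1284 bp, score 148, rank 317) and at 2650598 to 2651470 (873 bp, score 79.3, rank 1051).

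The seventh group held 2 strong peaks, each followed by a weak one, within 12.3 kb from 2666940 to 2679194. The strong peaks were at 2666940 to 2668072 (1133 bp, score 308, rank 107) and at 2675253 to 2676629 (1377 bp, score 342, rank 93). The first weak peak, at 2668451 to 2669188, was 738 bp wide and scored 78.9 (rank 1067). The second, at 2677825 to 2679194, was 1370 bp wide, nearly as wide as the strong peak before it, but scored 67.5 (rank 1447). The median score of the 4 peaks was 194, the highest of the groups with more than 2 peaks.

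The last peak of the window, at 2690019 to 2691699, stood alone inside it but opened a group of 19 peaks that ran on to 2762802, beyond the window. It was 1681 bp wide and scored 202, the fifth highest of the members, with a rank of 182 in the list and 83 on 3R. Its centre lay 1142 bp inside the end of the window. The next peak, just outside at 2698773 to 2699435, was 663 bp wide and scored 62.8, and 7.07 kb separated it from the last member. At the other end the border was clear. The last peak before the window, at 2319157 to 2319964, scored 83.6 and lay 183 kb before the first member. Of the 790 gaps between neighbouring peaks on 3R, 23 were longer than this one.

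The stretches without peaks were spread along the window. Between members the longest was 29.0 kb, from 2536144 to 2565132, between the lone second group and the third. Together with the 13.5 kb from 2521668 to 2535189 it left a single peak of 954 bp between the first and the third group. An empty stretch of 22.7 kb, from 2480001 to 2502731, opened the window and belonged to the 183 kb gap before it. Further empty stretches lay before and after the lone peak at 2599302, with 11.9 kb from 2587451 to 2599301 and 16.4 kb from 2599920 to 2616293. The highest peak of the window followed directly on the latter. Among the later groups, 11.6 kb from 2629156 to 2640755 and 15.5 kb from 2651471 to 2666939 were empty. The last of the 8 such stretches ran for 10.8 kb from 2679195 to 2690018, just before the last peak. None of the 7 between members was long for the arm: 32.8% of the gaps on 3R were as long as the 29.0 kb gap or longer. The median of all 23 gaps between members was 4.63 kb, against 10.04 kb for the gaps of 3R. Read depth below the authors' cut-off is not in the list, so an empty stretch means that no peak was called there, not that Pcl was absent.

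High scores and large widths were more common among the 24 peaks than in the list. A score of at least 100 was reached by 11 members (45.8%), against 27.3% of all peaks. A score of at least 200 was reached by 5 members (20.8%), against 7.45% of all peaks, and a score of at least 500 by 1 member, against 2.04%. Members at least 1300 bp wide numbered 7 (29.2%), against 12.0% of all peaks. At or above the median of the list were 18 members in score (75.0%, against 50.0% of all peaks) and 17 in width (70.8%, against 50.1%). Members had a median width of 911.5 bp (quartiles 813 and 1372 bp), and the median of the whole list was 830 bp. These shares are descriptions of one list, in which neighbouring peaks are not independent.

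The members followed the relation of width and score that holds across the list, with a few that departed from it. Spearman's rho between width and score was 0.74 over the 24 members, which share one library and one region, and 0.67 over the 2457 peaks. Each width was also set beside the median width of the 20 peaks on the chromosome arms with the closest scores. By this measure 10 members were wider and 14 narrower, with a median ratio of 0.96. The broadest for its score was the weak peak at 2677825 to 2679194 (1.68 times), followed by the one at 2576785 to 2578171 (1.48 times) and the last peak of the window (1.36 times). The narrowest for its score was the strong peak at 2666940 to 2668072, with 0.63 times. The strong peak at 2675253 to 2676629 was narrow for its score too, with 0.77 times. Its 1377 bp nevertheless ranked 251 by width in the list. The highest peak of the window, with 1.14 times, and the one that opens the first group, with 0.94 times, had about the usual width for their score.

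**Figure D2:**
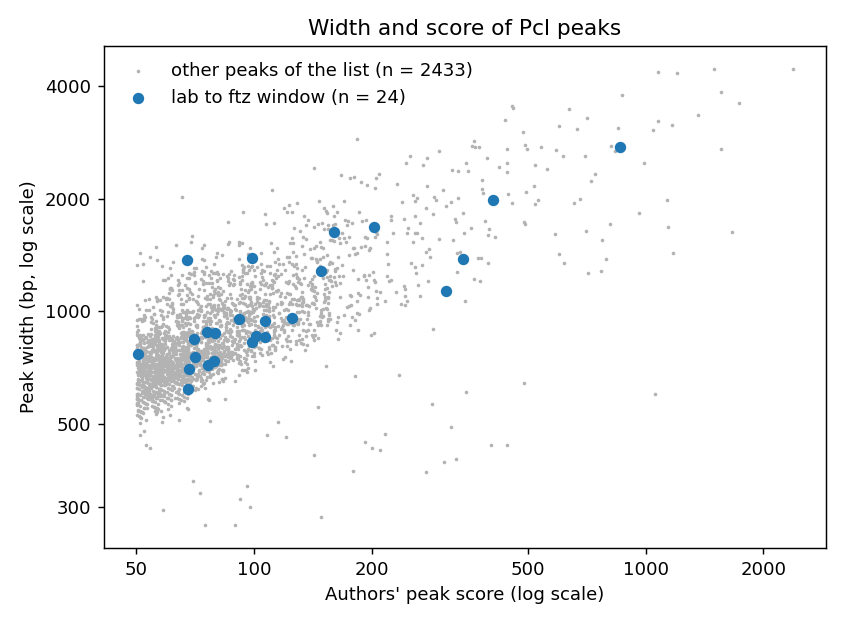
Peak width in bp is plotted against the authors' score for the 24 members (blue) and the other 2433 peaks of the list (grey), both on log axes. The members lie along the main cloud. The highest member (score 861, 2751 bp) stands farthest out of the 24 and ranks 21 by score and 29 by width in the list.

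For its length the window was among the fullest of the large arms. The 5 large arms were divided into 539 windows of 212 kb, laid out on 3R so that one of them was the window itself. The median such window held 3 peaks and had a covered share of 1.34%, and 77 held none. Only 4 of the 539 (0.742%), this one included, held 24 peaks or more, and the same 3 windows lay ahead in covered share. On 3R alone these were 4 of 130 windows (3.08%). All 3 fuller windows were on 3R. One of them, with 39 peaks, was the stretch right after the window, and the others, with 51 and 58 peaks, lie next to each other from 12444001 to 12868000. The next in order, from 17108001 to 17320000 on 3R, held 21 peaks. Only the lab to ftz window was placed by a known gene complex. Regions elsewhere, on 3R as well, can be cut by a border and have their peaks split between windows. The windows with 51 and 58 peaks, for instance, each hold part of a single group of peaks, from 12487002 to 12805868.

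**Figure D3:**
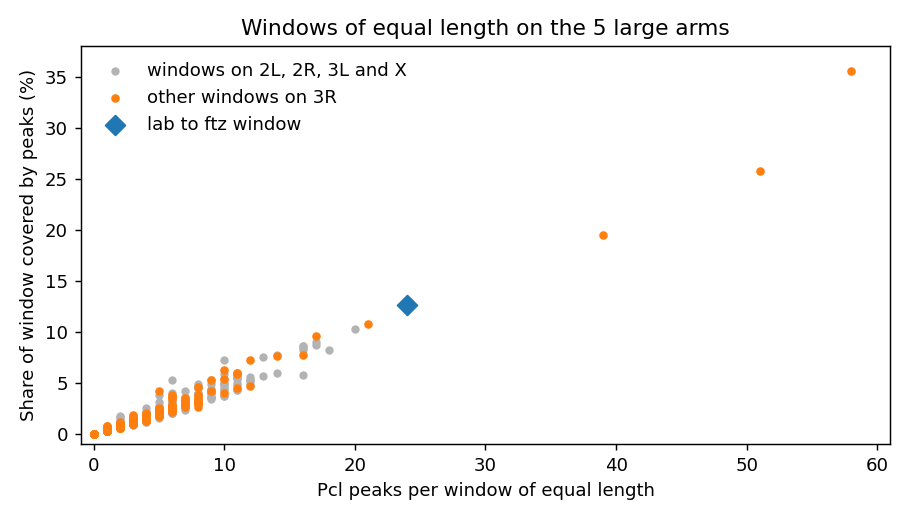
The share of each window covered by peaks (percent) is plotted against its number of peaks for 539 windows of 212 kb on 2L, 2R, 3L, 3R and X. The lab to ftz window (blue diamond, 24 peaks, 12.7%) lies above the main cloud and below 3 other windows of 3R.

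Beside the stretch of the same length right after it, the lab to ftz window had fewer and more widely spaced peaks. It held 24 peaks against 39, or 0.62 times as many, and peaks covered 12.7% against 19.5%. The median gap was 4.63 kb against 2.24 kb, and 3 of 23 gaps were under 1 kb against 11 of 38. Empty stretches of at least 10 kb made up 62.0% of the lab to ftz window and 22.8% of the stretch after it, where they numbered 3 and the longest was 17.6 kb. The 62.0% includes the 22.7 kb at the window start (10.72% of the window), whose length depends on where the window begins. This share was not computed for the other windows of equal length, of which the median held 3 peaks and was covered to 1.34%. In score the order depended on the measure. The median was 98.5 in the lab to ftz window and 83.3 after it, whereas a score of at least 200 was reached by 5 of 24 peaks and by 12 of 39. The weakest class differed as well, with 1 of 24 members (4.17%) and 7 of 39 peaks (17.95%) scoring under 60. Both shares lay below the 26.05% of all peaks in the list. The highest peak after the window, at 2826119 to 2827398, scored 769 and ranked 28, below the 861 of the highest member, but it was 1280 bp wide against 2751 bp. The stretch of equal length before the window held 2 peaks.

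The most populated group of the list, on 3R from 12487002 to 12805868, was denser than both. Peaks numbered 33.6 per 100 kb there, 18.4 in the stretch after the window and 11.3 in the lab to ftz window. Peaks covered 40.2% of the most populated group, in which no gap can reach 10 kb by the way groups were made. Its median score of 129 lay above the 98.5 of the lab to ftz window, and 15 of its 107 peaks scored at least 500 against 1 of 24. Like the window, it had 75% or more of its peaks at or above the median score of the list, with 82 of 107 against 18 of 24. Lone peaks, without a neighbour within 10 kb, were rare in the lab to ftz window, with 2 of 24 (8.33%) against 41.1% of all peaks. This share is tied to the density of peaks and is not a separate trait. The last member counted as not lone only through peaks outside the window.

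**Figure D4:**
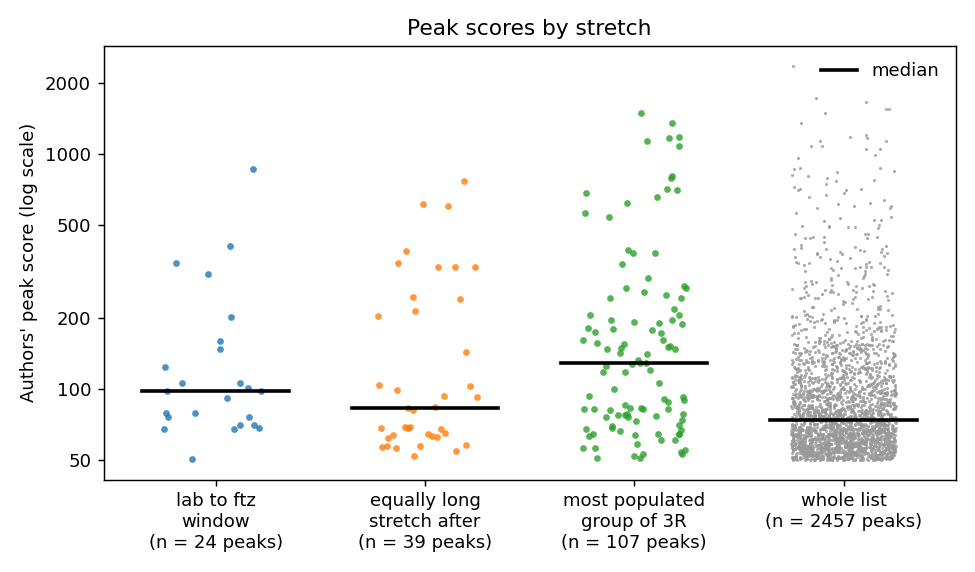
The authors' score of each peak (log axis, no unit) is plotted for the lab to ftz window, the equally long stretch after it, the most populated group of 3R and the whole list, with black lines for medians. The medians are 98.5, 83.3, 129 and 73.6, and the highest of the 24 members stands at 861, apart from the second at 407.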

How the data were processed

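Embryos were crosslinked with formaldehyde, and sonicated chromatin was precipitated with the Pcl antibody, per the labels' protocols. Bowtie and build BDGP5 are named, without versions, per the submitters' processing notes. Peaks were called with MACS, per the file headers; its settings, the use of the input and the way the 3 replicates were combined are unknown, as not given in the sources used here. Values in the deposited score column are the peak caller's own and were used only to rank and describe peaks within this list. The file gives no read counts, so the depth is unknown. Starts were converted to 1-based positions. Membership, gaps, groups, covered length and ranks (1 = highest, ties sharing the better rank) were computed with Python 3.11.15, numpy 2.4.6, pandas 2.3.3 and scipy 1.17.1. These steps, except the ranks, were tested on 40 simulated layouts, all 40 of which were recovered. Every member was described, as were all peak-free stretches of at least 10 kb. The window, lists and measures were chosen with earlier results of these data known. Gene names and order came from the RefSeq table of Release 6. No motif or sequence analysis was run. Alternatives were a stricter score, joining of near peaks, other membership rules and other gap lengths.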

Additional observations from a re-analysis of the deposited data

How the results depend on the processing

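Of 36 recomputed values, 31 were counted as kept. Numbers of peaks, groups and stretches, and the ratio of peak numbers, had to stay within 1.5 times. Median width and score had to stay within the 95% interval of the median from the ordered values, 828 to 1370 bp and 75.89 to 148.3. That interval is wide and treats neighbouring peaks as independent, which they are not, so it is a lenient limit and no replicate error. Covered share and longest empty stretch had to be unchanged. Many of the 31 were fixed in advance, as described below, so their number is no measure of robustness. With only peaks at or above the median score of the list, the covered share was 10.3%, the longest empty stretch was 30.7 kb and 18 peaks remained. The direction of these changes, though not their size, follows from the filter. In the filtered list the number of peaks was 0.86 times that in the stretch after the window, against 0.62 times. Joining of gaps under 1 kb gave a covered share of 13.4%, 21 peaks and a ratio of 0.75. By its definition it could not change the groups or the empty stretches of at least 10 kb. With 5 kb in place of 10 kb, 12 empty stretches and 12 groups were counted, which still passed as kept. With 20 kb, 2 empty stretches and 2 groups were counted. The numbers of groups and stretches thus depend on the gap length chosen. Membership by overlap or by whole peaks gave the same 24 peaks, so every value under these rules repeated the main one. Omission of single replicates was not run, since the list combines them. No paired analysis was possible because the result comes from one combined list. The peak list gives no depth, so a weak site and an unbound one cannot be told apart below the authors' cut-off. The planned comparison of protein and promoter sequences was not run, since no sequence table was used here.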
